A study of Mus musculus with 11 samples.

Results

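The follicular helper program was followed through 9 genes, picked by symbol from the 55471 Ensembl genes of the count table: Bcl6, Cxcr5, Tox, Tox2, Ascl2, Sh2d1a, Slamf6, Pou2af1 and Il21. All 9 symbols matched 1 identifier each. The genes were read in 11 RNA-seq libraries of C57BL/6 mice, 5 labelled WT and 6 from Pggt1bfl/flLys-Cre mice, called GLC in the titles, in which Pggt1b is deleted in macrophages. Every library held CD4+ cells from inguinal and axillary lymph nodes, purified by removing the other cells and then kept for 2 h with concanavalin A at 1.25 μg/ml, a lectin that activates T cells. The Lys-Cre driver acts in myeloid cells, so the sequenced CD4+ cells are not the stated target of the deletion, and the labels name neither a floxed allele nor Cre for WT. RNA of 2 mice was pooled in GLC replicate 78. The labels give neither age nor sex and do not say whether the other libraries are 1 mouse each, so p-values measure the spread between libraries.

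Follicular helper T cells are CD4+ cells that enter B cell follicles and help B cells in germinal centres. Bcl6, a transcriptional repressor, is required for this state, and Cxcr5 is the chemokine receptor that brings the cells into the follicle. Prolonged contact with B cells needs receptors of the SLAM family and their adaptor SAP, and interleukin-21 is the cytokine by which the T cells act on B cells. Several of these genes are not limited to T cells: Bcl6, Cxcr5 and Pou2af1 are also transcribed in B lineage cells.

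Libraries held 12775695 to 14620148 counts in WT and 11308285 to 12820895 in GLC. CD4+ T cell transcripts were high: the summed level of 7 T cell markers was 2612 to 3014 CPM, the count as a share of the scaled library size. The 12 B cell markers summed to 7.55 to 20.5 CPM, and the 7 myeloid markers to 3.31 to 7.51 CPM. Transcripts of other cells were not all this low: 8 plasma cell markers summed to 70.9 to 546 CPM in WT and 166 to 778 CPM in GLC. Cd8a had 13 counts in all libraries together, 4 in WT and 9 in GLC. The other CD8 gene read, Cd8b1, was higher, with 713 counts in WT and 858 in GLC. Pggt1b was at 33.3 to 44.6 CPM in WT and 37.9 to 57.2 CPM in GLC, which does not check a deletion made in macrophages. GLC replicate 9 had 11 Xist counts and 633 counts over 4 Y-linked genes, against 2992 to 5943 Xist counts and at most 1 Y-linked count in the others. By these counts GLC replicate 9 held male cells and the other libraries female cells, so sex was mixed in GLC only. In such bulk samples fewer cells of a type and less RNA per cell cannot be told apart.

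Promoter sequences were in the RefSeq table (GRCm38.p6) for 6 of the 9 members, from 250 bases before to 50 bases after the transcription start; Cxcr5, Tox and Sh2d1a are not among them. Those of Il21, Tox2 and Pou2af1 are shown, the cytokine gene and 2 regulators with fold changes among the higher of the members. Capitals mark matches on either strand to the E-box CANNTG, a site bound by basic helix-loop-helix factors such as the Ascl2 protein, and to GGAAA, the core of NFAT sites, which T cell activation engages. The Il21 window lies at chr3:37232587-37232886 (minus strand), the Tox2 window at chr2:163202877-163203176 (plus strand) and the Pou2af1 window at chr9:51213440-51213739 (plus strand).
Il21: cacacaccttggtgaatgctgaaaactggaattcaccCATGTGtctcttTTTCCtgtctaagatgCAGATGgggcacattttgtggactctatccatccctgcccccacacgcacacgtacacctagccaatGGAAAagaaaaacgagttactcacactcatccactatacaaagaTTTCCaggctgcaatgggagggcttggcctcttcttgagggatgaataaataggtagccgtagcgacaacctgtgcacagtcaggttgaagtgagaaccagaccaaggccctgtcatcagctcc
Tox2: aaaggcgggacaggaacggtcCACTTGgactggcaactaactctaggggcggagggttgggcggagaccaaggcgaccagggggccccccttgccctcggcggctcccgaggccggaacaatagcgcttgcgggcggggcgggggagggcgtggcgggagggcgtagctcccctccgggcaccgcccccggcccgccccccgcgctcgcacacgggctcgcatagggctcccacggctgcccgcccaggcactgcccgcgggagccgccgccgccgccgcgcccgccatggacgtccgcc
Pou2af1: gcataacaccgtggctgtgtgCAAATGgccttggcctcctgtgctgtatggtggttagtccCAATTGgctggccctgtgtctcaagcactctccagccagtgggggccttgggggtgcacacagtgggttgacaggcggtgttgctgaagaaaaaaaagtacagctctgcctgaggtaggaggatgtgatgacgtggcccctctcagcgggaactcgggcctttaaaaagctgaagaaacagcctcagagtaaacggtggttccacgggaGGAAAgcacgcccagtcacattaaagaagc
The Il21 window held 3 GGAAA matches and 2 E-boxes, the Pou2af1 window 1 and 2, and the Tox2 window 0 and 1, with no overlap between the marked motifs. These are common letters: of 27018 mouse promoter windows of the same length, 61.4% held GGAAA and 72.2% held an E-box. GC content was 49.0% for Il21, 55.3% for Pou2af1 and 77.0% for Tox2. None of the 6 windows held TGANTCA (AP-1, in 7.92% of all windows), ATGCAAAT (the octamer that the Pou2af1 protein binds together with Oct factors, 1.77%), TTCCTAGAA (Bcl6, 0.422%) or CTTTGAA (TCF/LEF, 5.26%). The Bcl6 window held 1 match to the STAT site TTCNNNGAA, which 8.42% of all windows held.

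Expression of the program was uneven. Per kilobase of annotated exon, averaged over all 11 libraries, Bcl6 stood at 12.2 ± 1.81 CPM per kb (SD, n = 11), Slamf6 at 11.2 ± 1.56, Tox at 9.35 ± 1.34, Sh2d1a at 7.61 ± 1.11 and Pou2af1 at 7.07 ± 2.33 CPM per kb. Cxcr5 followed at 3.66 ± 1.03, Il21 at 1.30 ± 0.486, Tox2 at 0.847 ± 0.358 and Ascl2 at 0.0279 ± 0.0546 CPM per kb. Among the first 5, neighbours in this order differed by less than the SD of their difference within a library. Bcl6 lay above Slamf6 in 7 of 11 libraries, Slamf6 above Tox in 8, Tox above Sh2d1a in 10 and Sh2d1a above Pou2af1 in 6. From Pou2af1 downward each step was larger than that SD, and Cxcr5 exceeded Il21 in 11 of 11 libraries. Exon lengths are unions over all annotated transcripts, so the order would shift with the transcripts in use.

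No member separated GLC from WT. Of the 8 members that passed the filter on low counts, 0 were called higher and 0 lower at an adjusted p of 0.05 in edgeR's quasi-likelihood test, beside 0% of all 12404 genes tested. The groups overlapped for all 8, while they did not overlap for 0.331% of all genes. At an unadjusted p under 0.05 there was 1 member, Tox2, which is 12.5% of the 8 against 4.54% of all genes. The fold change was above 1 for 6 of 8 members and for 49.9% of all genes, and the members' median log2 fold change was 0.22 against 0.00 over all genes. Each of the 8 tested members had an adjusted p of 0.9997 in edgeR. DESeq2 called 2 genes in the whole table and limma-voom 0, with no member among them.

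**Figure D1:**
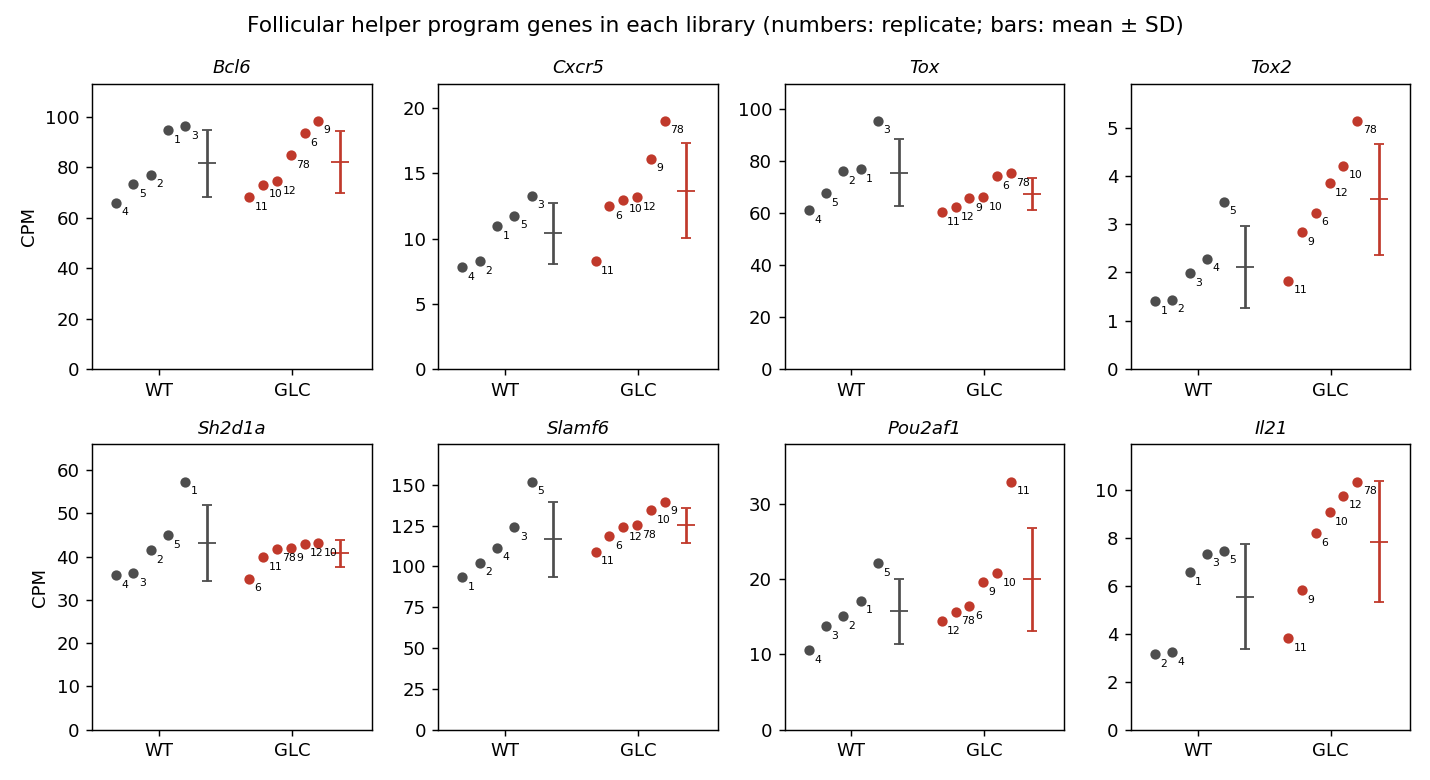
Level of each of the 8 tested members in every library in CPM (vertical axis, from 0), WT in grey and GLC in red, points ordered by value and numbered by replicate, with the group mean ± SD beside them. The groups overlap in every panel; GLC replicate 11 is the lowest GLC library for 6 of the 8 genes and the highest for Pou2af1.

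Among the transcription factors, Bcl6 (ENSMUSG00000022508, chromosome 16, positions 23965052 to 23988852, minus strand; mm10 coordinates here and for the other members) was at 94.9, 77.2, 96.4, 66.0 and 73.5 CPM in WT replicates 1 to 5. In GLC it ran from 68.1 CPM in replicate 11 through a median of 79.7 to 98.5 CPM in replicate 9. High and low libraries were spread over both groups. The group means were 81.6 ± 13.5 CPM (SD, n = 5) and 82.1 ± 12.2 CPM (SD, n = 6), a log2 fold change of 0.01 (SE 0.12, 95% interval -0.24 to 0.26). The interval limits a difference in Bcl6 to between 0.846-fold and 1.20-fold, although the spread within a group was 29.7 times (WT) and 21.5 times (GLC) the variance of counting alone.

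Tox and Tox2 encode related HMG-box proteins, and both are high in follicular helper cells. Tox (ENSMUSG00000041272, chromosome 4, positions 6686353 to 6991557) was at 77.1, 76.3, 95.6, 61.2 and 67.8 CPM in WT, and between 60.5 CPM (replicate 11) and 75.5 CPM (replicate 78), with a median of 66.0, in GLC. The WT mean on the log2 scale was exceeded by 1 of 6 GLC libraries, and WT replicate 3 stood above all others. GLC over WT came to -0.17 on the log2 scale (SE 0.10, interval -0.38 to 0.05), and to -0.06 without WT replicate 3. Tox2 (ENSMUSG00000074607, chromosome 2, positions 163203125 to 163324170) was at 1.41, 1.43, 1.98, 2.29 and 3.47 CPM in WT and from 1.83 CPM (replicate 11) through a median of 3.54 to 5.14 CPM (replicate 78) in GLC, on 18 to 67 counts a library. The WT mean was exceeded in 5 of 6 GLC libraries, with WT replicates 3, 4 and 5 inside the GLC range. Its log2 fold change of 0.73 (SE 0.30, interval 0.08 to 1.38) was the largest of the members and had an unadjusted p of 0.0298 and an adjusted p of 0.9997 in edgeR. Tox4, a broadly expressed relative, was at 141 ± 14.3 CPM (SD, n = 5) in WT and 138 ± 7.89 CPM (SD, n = 6) in GLC, and Tox3 had 2 counts in WT and 0 in GLC.

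Ascl2 (ENSMUSG00000009248, chromosome 7, positions 142966829 to 142969264), a basic helix-loop-helix factor that can induce Cxcr5 in mouse T cells, was at the edge of detection. It had 2 counts in WT replicate 3, 4 in WT replicate 5, 1 in GLC replicate 10 and 0 in the other 8 libraries, where 0 counts allow up to 0.204 to 0.261 CPM. The ratio of WT to GLC was 6.49 with an exact 95% interval of 0.787 to 298, which covers counting error only. It did not pass the filter and was not tested in the fit over all genes.

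Pou2af1 (ENSMUSG00000032053, chromosome 9, positions 51213708 to 51240080), the coactivator OBF-1 of Oct factors, was at 17.1, 15.1, 13.7, 10.6 and 22.1 CPM in WT. In GLC it ran from 14.4 CPM (replicate 12) through a median of 18.0 to 32.9 CPM in replicate 11. That library alone lay above the WT maximum. GLC over WT came to 0.34 on the log2 scale (SE 0.22, interval -0.13 to 0.80), and to 0.14 without GLC replicate 11. Pou2f2, which encodes its partner Oct-2, was at 83.9 ± 21.1 CPM (SD, n = 5) in WT and 114 ± 16.0 CPM (SD, n = 6) in GLC, which is 0.44 on the log2 scale (SE 0.15) and did not pass.

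Of the surface molecules, Cxcr5 (ENSMUSG00000047880, chromosome 9, positions 44511787 to 44561877) was at 10.96, 8.25, 13.3, 7.81 and 11.8 CPM in WT. In GLC its level ran from 8.28 CPM (replicate 11) through a median of 13.1 to 19.0 CPM (replicate 78). GLC replicates 78 and 9 lay above the highest WT library, while GLC replicate 11 sat with the lowest WT libraries. The means of 10.4 ± 2.34 CPM (SD, n = 5) and 13.7 ± 3.64 CPM (SD, n = 6) gave a log2 fold change of 0.39 (SE 0.19, interval -0.02 to 0.81; unadjusted p = 0.0621 and adjusted p = 0.9997 in edgeR). Exons of Cxcr5 share 110 bases with Bcl9l on the opposite strand, and without a stated strand setting reads from that stretch cannot be assigned.

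Slamf6 (ENSMUSG00000015314, chromosome 1, positions 171917515 to 171953170), a SLAM family receptor of T and B cells, was at 93.3, 102, 124, 111 and 152 CPM in WT and from 109 CPM (replicate 11) through a median of 125 to 140 CPM (replicate 9) in GLC. Both the lowest and the highest library were WT. GLC over WT came to 0.10 on the log2 scale (SE 0.11, interval -0.13 to 0.33), to 0.22 without WT replicate 5 and to 0.03 without WT replicate 1. Sh2d1a (ENSMUSG00000005696, chromosome X, positions 42502453 to 42529330) encodes SAP, the adaptor that binds the tails of these receptors. It was at 57.4, 41.5, 36.2, 35.7 and 45.0 CPM in WT and from 35.0 CPM (replicate 6) through a median of 41.9 to 43.1 CPM (replicate 10) in GLC, with GLC replicate 9, the library with Y-linked counts, at 42.0 CPM. WT replicate 1 was the highest of all, and the other 10 libraries overlapped. GLC over WT came to -0.08 on the log2 scale (SE 0.11, interval -0.32 to 0.16) and to 0.04 without WT replicate 1. For Sh2d1a and Slamf6 the coefficient of variation was 20.5% and 19.6% in WT and 7.57% and 8.72% in GLC; no test of the spread was run.

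Il21 (ENSMUSG00000027718, chromosome 3, positions 37222759 to 37232636), the secreted effector, was at 6.57, 3.16, 7.36, 3.23 and 7.48 CPM in WT. In GLC it ran from 3.83 CPM (replicate 11) through a median of 8.66 to 10.4 CPM (replicate 78). WT replicates 2 and 4 and GLC replicate 11 formed the low end, and 4 GLC libraries exceeded the highest WT library. The means were 5.56 ± 2.19 CPM (SD, n = 5) and 7.86 ± 2.53 CPM (SD, n = 6), or 0.50 on the log2 scale (SE 0.29, interval -0.12 to 1.12). The antisense gene Gm12534 shares 469 exon bases with Il21 and had 28 counts over all libraries, against 383 in WT and 586 in GLC for Il21.

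**Figure D2:**
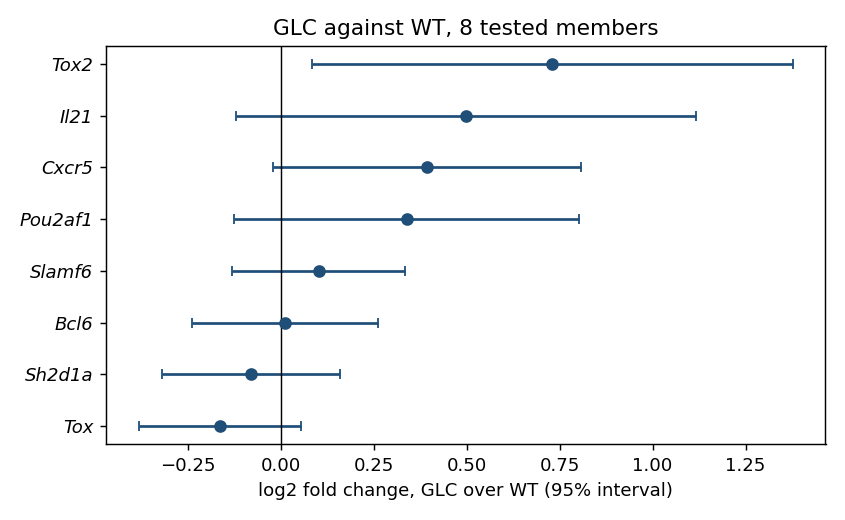
Log2 fold change of GLC over WT (horizontal axis) for the 8 tested members, with 95% intervals from the edgeR fit over all genes. Tox2 is highest at 0.73 and Tox lowest at -0.17; only the Tox2 interval leaves out 0, and its adjusted p is 0.9997.

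Among pairs of tested members, only Cxcr5 with Il21 passed over all 11 libraries for varying together, and not with most libraries left out in turn. These pairs were added after seeing the data. Pearson's r over the 11 libraries was computed for all 28 pairs of tested members on log2 CPM, with permutation p-values adjusted over the 28. Cxcr5 and Il21 had the highest r, 0.839 (permutation p = 0.00166, adjusted p = 0.0465), with Spearman's rho of 0.709 (permutation p = 0.0179, adjusted p = 0.167). Within WT r was 0.966 and within GLC 0.690, and it was 0.751 without WT replicate 4 and GLC replicate 78, the libraries farthest from the Cxcr5 median. With each library left out r stayed between 0.787 and 0.930. The permutation p adjusted over the pairs passed without GLC replicate 9 (0.00252). It did not pass without any of the other 10 libraries in turn, and ran up to 0.192.

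Other pairs did not pass. Il21 with Tox2 had r = 0.736 (rho 0.827; permutation p = 0.0116 and 0.00279, adjusted p = 0.107 and 0.0781), with 0.961 within GLC, 0.332 within WT and 0.787 without the WT replicates 1 and 2. Tox2 with Slamf6 had r = 0.734 (rho 0.782; permutation p = 0.0104 and 0.00631, adjusted p = 0.107 and 0.0883) and 0.475 without the same libraries. Tox2 with Cxcr5 had r = 0.694 (rho 0.609; permutation p = 0.0191 and 0.0518, adjusted p = 0.107 and 0.237) and 0.627 without WT replicate 4 and GLC replicate 78. Bcl6 with Tox had r = 0.684 (rho 0.655; permutation p = 0.0161 and 0.0330, adjusted p = 0.107 and 0.203), 0.846 without GLC replicate 9 and WT replicate 3, and it passed without GLC replicate 9 alone (r = 0.855, permutation adjusted p = 0.00966). For Pou2af1 the values within the groups differed in sign: its r with Il21 was 0.015 over all libraries (rho 0.055; permutation p = 0.966 and 0.880, adjusted p = 0.993 and 0.913), 0.072 without GLC replicate 11 and WT replicate 4, 0.635 within WT and -0.888 within GLC. With Cxcr5 it was 0.533 within WT and -0.746 within GLC, and with Tox2 0.304 and -0.801. These values rest on 5 WT and 6 GLC libraries. GLC replicate 11 was the highest GLC library for Pou2af1 and the lowest for Il21, Cxcr5 and Tox2. The values within GLC were not computed without it, and the difference between the groups was not tested.

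**Figure D3:**
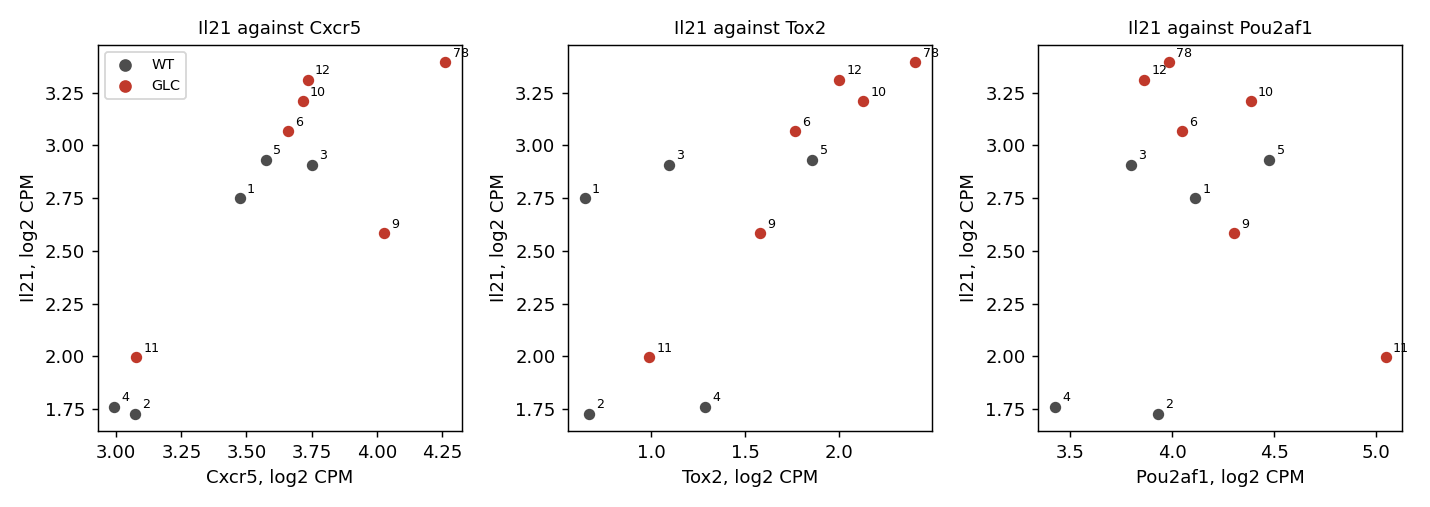
Il21 against Cxcr5, Tox2 and Pou2af1, each axis in log2 CPM and each point 1 library numbered by replicate (WT grey, GLC red). Il21 rises with Cxcr5 (r = 0.839) and Tox2 (r = 0.736) while r with Pou2af1 is 0.015 over all libraries, 0.635 within WT and -0.888 within GLC, with GLC replicate 11 at the lower right.

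Over all genes, the transcripts whose pattern was most like a member's were described by the highest Pearson's r over the 11 libraries; each is the best of 10563 genes, so these are maxima and carry no test. For Il21 these were Car5b (r = 0.977), Plscr1 (0.955) and Sh3bgrl (0.953), and for Cxcr5 Phlpp1 (0.942), Fam160a1 (0.941) and Fam129a (0.939). Tox2 was nearest to Acsbg1 (0.949), Hipk2 (0.940) and Eno2 (0.933), and Tox to Arnt (0.933), Gtdc1 (0.900) and Aff4 (0.882). Bcl6 was nearest to Ripk2 (0.922), Jarid2 (0.920) and H2-T3 (0.914), Sh2d1a to Ggct (0.926), Cox6b1 (0.901) and Hmgb1 (0.901), and Slamf6 to C2cd5 (0.909), Msi1 (0.902) and Aarsd1 (0.899). Pou2af1 had the lowest values, 0.877 with Mapk14, 0.857 with Anapc15 and 0.839 with Sf3a1. No member was among the nearest genes of another.

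B cell transcripts were detected at a low level in every library. Of the 12 B cell markers, 4 passed the filter, 0 were called, and the summed level was 8.04 to 17.6 CPM in WT and 7.55 to 20.5 CPM in GLC. Much of it was the kinase gene Blk (7.24 ± 2.44 CPM in WT, SD, n = 5, and 6.57 ± 3.71 CPM in GLC, SD, n = 6), while Ms4a1, which encodes CD20, was at 0.423 and 0.286 CPM. Pou2af1 exceeded the sum of all 12 in 9 of 11 libraries, and Cxcr5 did in 4 of 11, with 0 of 5 in WT. The 4 markers of germinal centre B cells summed to 0.939 to 2.44 CPM in WT and 1.39 to 2.53 CPM in GLC. Ighm was the highest of the 8 plasma cell markers, which summed to 70.9 to 546 CPM in WT and 166 to 778 CPM in GLC. Immunoglobulin and J chain transcripts made up most of that sum on average. GLC replicate 11, the highest for Pou2af1, was the lowest GLC library for the sum at 166 CPM. The part of plasma cell RNA in the Pou2af1 level was not tested.

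Across the 11 libraries the mean log2 CPM of the B cell markers had r between -0.12 and 0.52 with the members, and none of the 9 relations passed after adjustment (permutation test, adjusted p of 0.637 to 0.917 for r and of 0.677 to 0.925 for rho). That mean weighs all 12 markers alike, though only 4 passed the filter on low counts, so counting noise could weaken any relation. For Sh2d1a r was 0.521 and rho 0.427 (permutation p = 0.0923 and 0.192). For Cxcr5 they were 0.317 and 0.255 (permutation p = 0.336 and 0.450), and for Pou2af1 0.296 and 0.255 (permutation p = 0.385 and 0.450). Without WT replicate 4 and GLC replicate 78 these became 0.505, -0.293 and 0.174. Within WT (n = 5) the 3 values were 0.750, 0.807 and 0.762, and within GLC (n = 6) 0.121, 0.131 and 0.040. Values within a group were not tested. Il21 had the highest r within WT, 0.872, and -0.0391 within GLC, and Bcl6 had 0.741 and -0.203. The lowest within WT was -0.0388 for Tox2. With the B cell mean as a covariate the log2 fold change was 0.43 (SE 0.18) for Cxcr5, 0.59 (SE 0.28) for Il21, 0.74 (SE 0.31) for Tox2, 0.38 (SE 0.21) for Pou2af1, 0.10 (SE 0.11) for Slamf6, 0.03 (SE 0.12) for Bcl6, -0.05 (SE 0.10) for Sh2d1a and -0.15 (SE 0.10) for Tox.

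Levels of regulatory T cell transcripts were set beside those of the members, and their correlation was not tested. A subset of regulatory T cells, the follicular regulatory cells, shares Cxcr5 and Bcl6 with follicular helper cells. All 7 regulatory markers had a log2 fold change above 0 (median 0.51), and 0 of 7 were called. Foxp3, the factor that defines these cells, was at 57.3 ± 19.0 CPM (SD, n = 5) in WT and 89.1 ± 24.3 CPM (SD, n = 6) in GLC, and Lrrc32 at a log2 fold change of 0.64 (SE 0.20). Their summed level was 388 to 623 CPM in WT and 424 to 831 CPM in GLC. The lowest were WT replicates 2 and 4 and GLC replicate 11, and the highest was GLC replicate 78, the same libraries that were lowest and highest for Cxcr5 and Il21. Other marker sums shared much of this order. GLC replicate 78 was also highest for plasma cell markers (778 CPM) and natural killer markers (4.68 CPM). For both sums GLC replicate 11 was lowest of GLC (166 and 1.39 CPM) and WT replicate 4 lowest of WT (70.9 and 1.58 CPM).

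With the mean log2 CPM of the regulatory markers as a covariate, the log2 fold change went from 0.39 to -0.05 (SE 0.14) for Cxcr5, from 0.50 to -0.10 (SE 0.24) for Il21, from 0.73 to 0.27 (SE 0.34) for Tox2, from 0.10 to -0.01 (SE 0.13) for Slamf6 and from 0.01 to -0.17 (SE 0.12) for Bcl6. Tox went from -0.17 to -0.34 (SE 0.10) and Pou2af1 from 0.34 to 0.53 (SE 0.23), while Sh2d1a stayed at -0.08. No member passed in that fit either (edgeR adjusted p = 0.9998 for each). The regulatory markers were themselves higher on average in GLC, so the covariate and the group are not independent, and whether the members' levels come from regulatory cells was not tested.

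**Figure D4:**
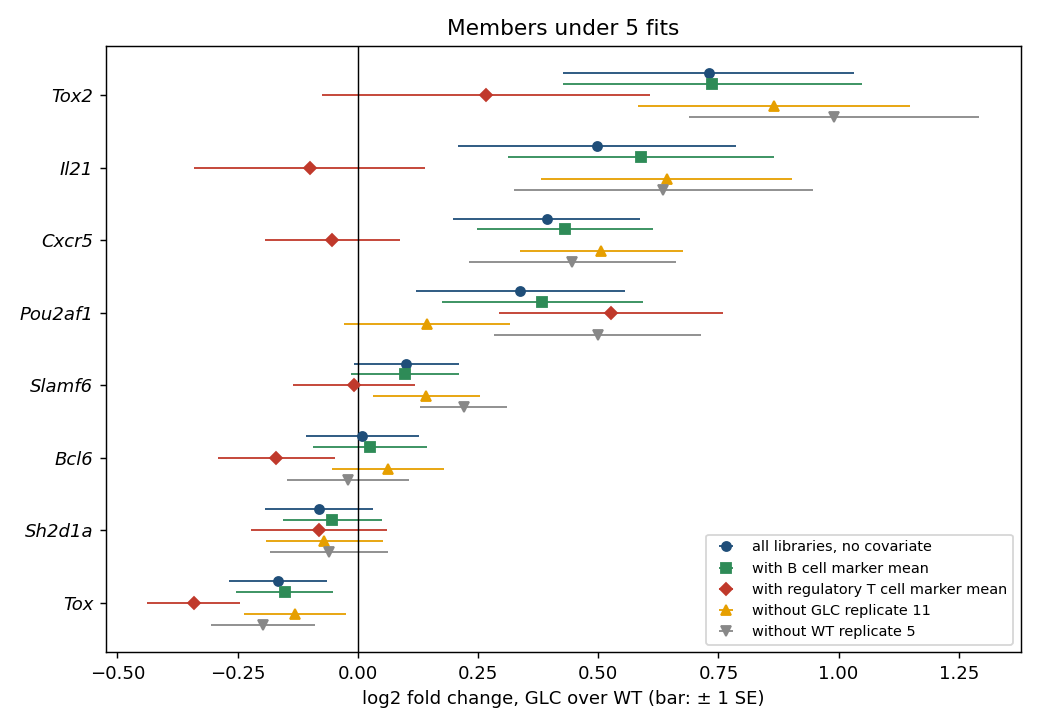
Log2 fold change of GLC over WT with ± 1 SE (horizontal axis) for the 8 tested members under 5 fits, marked by colour and symbol. With the regulatory T cell mean as a covariate (red diamonds) Cxcr5 and Il21 move to -0.05 and -0.10; without GLC replicate 11 (triangles) Pou2af1 falls to 0.14.

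The genes around the program were read from lists. None of their genes passed over all genes (edgeR adjusted p = 0.9997 for each gene named in this paragraph and the next), so counts are given by the sign of the fold change. Of 14 other surface and effector genes of follicular helper cells, 12 were tested, 9 with a log2 fold change above 0 and 3 below 0, with a median of 0.12. The checkpoint receptor gene Tigit was at 28.9 ± 8.12 CPM (SD, n = 5) in WT and 43.4 ± 15.6 CPM (SD, n = 6) in GLC, Pdcd1, which encodes PD-1, at 24.1 ± 10.0 and 36.3 ± 13.0 CPM, and Tnfsf8, the CD30 ligand, at 121 ± 36.7 and 160 ± 46.4 CPM. Tigit had a log2 fold change of 0.59 (SE 0.23), or 0.37 without GLC replicate 78. With the regulatory T cell mean as covariate Tigit came to 0.0169, Pdcd1 to -0.0049 and Tnfsf8 to -0.15. Cxcl13 and Sostdc1 were not tested, with 4 counts each in WT and 7 and 17 in GLC. Of 13 partner transcription factors, 9 were above 0 and 4 below 0 (median 0.10). Besides Pou2f2, Lef1, which acts upstream of Bcl6, had a log2 fold change of -0.20 (SE 0.09) and Stat3, which carries interleukin-6 and interleukin-21 signals, at 0.17 (SE 0.09).

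The 11 opposing genes, which favour other fates or repress the program, had 4 above 0 and 7 below 0 (median -0.03), with the interleukin-7 receptor gene Il7r at -0.22 (SE 0.10) and the interleukin-2 receptor genes Il2rb and Il2ra at 0.27 (SE 0.18) and 0.20 (SE 0.16). Without GLC replicate 78 these were 0.11 and 0.10; Il2rb was 0.17 without WT replicate 2, and Il2ra 0.12 without WT replicate 4 and 0.32 without WT replicate 3. Of 7 positioning receptors 1 was above 0, S1pr2, which confines cells to the germinal centre, at 0.20 (SE 0.12), or 0.12 without WT replicate 1. Ccr7 and S1pr1, which guide cells to the T cell zone and out of the node, were at -0.32 (SE 0.16) and -0.19 (SE 0.09). The SLAM and SAP module centred on 0, with 7 of 11 above 0 and a median of 0.01. In it Slamf7 was at 0.42 (SE 0.27), or 0.28 without GLC replicate 6. Sh2d2a, a T cell adaptor gene, was at -0.14 (SE 0.12), and at -0.0481 without WT replicate 3, -0.0893 without GLC replicate 10 and -0.0865 without GLC replicate 11. Cd84 was at 0.06 (SE 0.06), and at 0.0288 without WT replicate 4 and 0.038 without WT replicate 2. In the interleukin-21 receptor pathway 5 of 8 were above 0 (median 0.21), with Jak3 at 0.56 (SE 0.18), while Il21r itself was at 212 ± 30.6 CPM (SD, n = 5) in WT and 209 ± 30.3 CPM (SD, n = 6) in GLC.

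**Figure D5:**
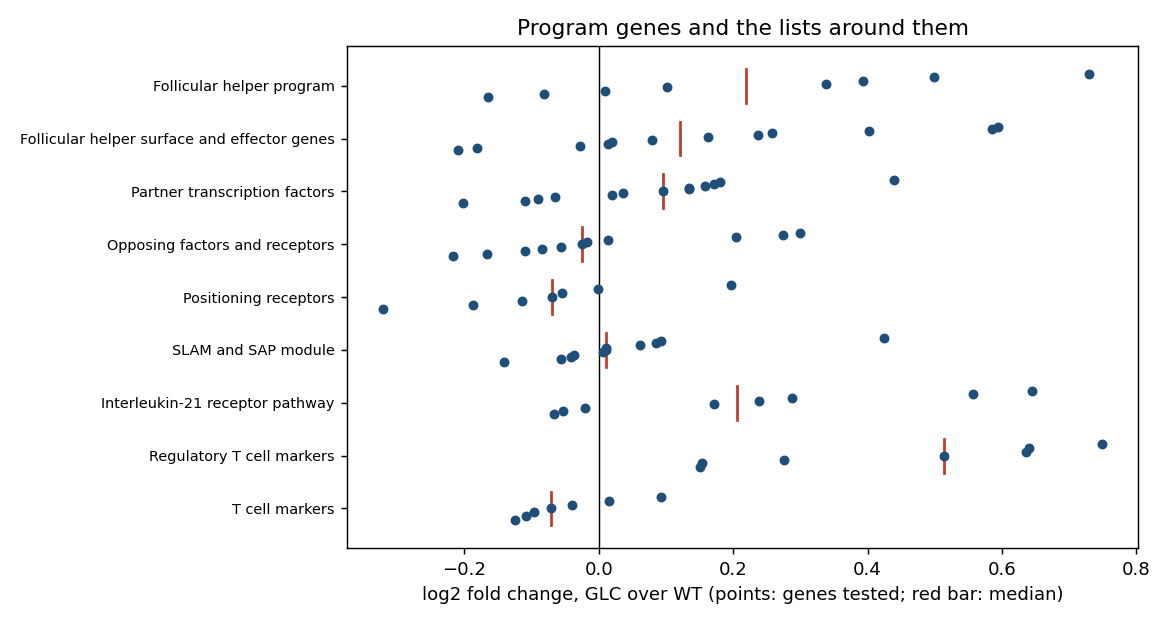
Log2 fold change of GLC over WT (horizontal axis) for each tested gene of the program, of 6 lists around it and of the regulatory and general T cell markers, with the list median as a red bar. Medians run from -0.07 for positioning receptors and T cell markers to 0.51 for regulatory T cell markers; no point passes over all genes.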

How the data were processed

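Per the labels' protocols RNA came from purified CD4+ lymph node cells cultured with concanavalin A. The authors deposited raw counts of reads per Ensembl gene, not normalized; STAR, featureCounts and mm10 are named in the submitters' processing notes. Tool versions, annotation, strand setting and the handling of multi-mapped reads were not given in the sources used here. Symbols, positions and exon lengths were taken from GENCODE M21 (GRCm38, which mm10 names), which matched 55230 of 55471 identifiers; unmatched ones held 0.00286% of counts. Samples were grouped by title.

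The 12404 genes kept by filterByExpr were scaled by TMM and compared, in edgeR 4.0.16 under R 4.3.3, between 6 GLC and 5 WT libraries with glmQLFit and glmQLFTest, two-sided, with Benjamini-Hochberg adjustment over all genes, called at 0.05. Fold changes are GLC over WT. SEs and 95% intervals came from the quasi-likelihood F statistic, and log2 CPM used a prior count of 2. The variance relative to counting is a chi-square per degree of freedom. Between pairs of libraries that value was 9.48 to 62.8 over genes at 10 or more counts throughout, so none was treated as a copy. Limits for 0 counts are 3 counts; such limits and intervals cover counting error only. Correlations used 100000 permutations, two-sided; those between pairs of members were added after seeing the data. The fit was tested on 5 simulated data sets with 200 changed genes each. It called 14.8% of the genes changed 1.25-fold, 55.6% at 1.5-fold, 74% at 2-fold and 95.6% at 4-fold. Small changes could therefore be missed.

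Alternatives were RLE and upper quartile scaling, no filter beyond 1 count, at least 1 CPM in 5 libraries, a robust fit, a marker mean as covariate, limma-voom (limma 3.58.1), DESeq2 1.42.0, a threshold of 0.1, and libraries left out. Named were all 9 members, up to 4 genes of smallest p (in effect 2 or 3) from each of 6 lists around the program and from the regulatory markers, and the 3 nearest genes of each member, leaving out predicted genes, pseudogenes and receptor segments; marker genes, paralogs and other genes given only as levels or counts were chosen after their values were seen. The members and lists were chosen with earlier results of these data known. Promoters were searched on both strands, in the window of each gene's most upstream start. Germinal centre B cell, natural killer and CD8 T cell markers were further lists. Some genes of these lists are not reported here.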

Additional observations from a re-analysis of the deposited data

Results flagged for a closer look

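For Sh2d1a, GLC replicate 6 lay apart from the other GLC libraries, at a log2 CPM of 5.13 against 5.32 to 5.43 in the other 5. Its gap to the nearest of them was 0.634 of the group's range, just past the 95% critical value of Dixon's test for 6 samples. In WT, 2 libraries were near that value, replicate 4 at 5.16 and replicate 3 at 5.19. A total of 18 groups were examined in this way, the 8 tested members and the B cell marker mean in each of WT and GLC, and chance flags about 5% of groups.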

How the results depend on the processing

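No member was called in any of the 22 alternative fits. Over all genes edgeR called 1 without a filter beyond 1 count and DESeq2 called 2, neither a member; the other fits called 0, as did each left-out library. Genes at an unadjusted p under 0.05 numbered 563, against 1390 without the filter, 278 with the regulatory T cell mean as covariate and 320 without WT replicate 2. The median of all genes stayed within 0.1 of its value.

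Tox, Tox2 and Pou2af1 kept their sign in every fit. With the regulatory T cell mean as covariate the sign turned for Bcl6 (-0.17), Cxcr5 (-0.0532), Slamf6 (-0.0081), Il21 (-0.10), Pdcd1 (-0.0049), Tnfsf8 (-0.15), Il2rb (-0.10) and Il2ra (-0.16); the cause was not tested. Bcl6 was -0.0764 without GLC replicates 78 and 9 together. With 1 library left out, Bcl6 ran from -0.0579 to 0.081, Sh2d1a from -0.14 to 0.0385, Cxcr5 from 0.28 to 0.51, Il21 from 0.35 to 0.64, Tox2 from 0.59 to 0.99, Pou2af1 from 0.14 to 0.50, Tox from -0.23 to -0.06 and Slamf6 from 0.03 to 0.22. The r with the B cell mean ran from -0.39 to 0.22 for Tox2 and from -0.32 to 0.20 for Slamf6.

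No paired analysis was possible because the groups share no replicate numbers. Ascl2, at 0 to 4 counts a library, is limited by depth: without the filter its log2 fold change was -2.02 (SE 1.21).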

Other observations

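Relatives of the members differed in whether they were detected. Bcl6b, the closest relative of Bcl6, had 9 counts in WT and 3 in GLC. Cxcr3, the chemokine receptor of type 1 helper cells, was at 15.5 ± 5.20 CPM (SD, n = 5) in WT and 24.0 ± 9.17 CPM (SD, n = 6) in GLC, and Ccr6, that of type 17 helper cells, at 14.6 ± 5.95 and 16.3 ± 6.10 CPM. Natural killer markers summed to 1.58 to 2.69 CPM in WT and 1.39 to 4.68 CPM in GLC. The 2 CD8 genes differed: Cd8b1 was at 10.4 ± 2.39 CPM (SD, n = 5) in WT and 11.6 ± 1.57 CPM (SD, n = 6) in GLC, beside the 13 counts of Cd8a. No cause was tested for any of these values.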
